A study of Homo sapiens with 4 samples.

Results

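Cholesterol and fatty acid synthesis is described here by 33 genes chosen by name: 18 enzymes of the sterol branch, 8 of the fatty acid branch, and 7 regulators and other genes. They were found in 34 of the 64253 gene rows, because ACACA was listed under 2 identifiers, one of which had 0 counts in every library and was not used. All 33 passed the filter on low counts. RNA-seq was performed in A549 cells, an established human lung adenocarcinoma line, transfected with a plasmid of NFATc2 or of NFATc2M and induced with OPNc-CM, the medium of HEK-293T cells made to express osteopontin isoform c. NFATc2 is a calcium-regulated transcription factor, and NFATc2M carries a deletion in its DNA binding domain and was used as its loss of function mutant. There were 2 libraries per group, replicates 1 and 2. Both groups carried an NFATc2 plasmid and both received OPNc-CM, so their difference is that between the wild type and the mutant construct. The cells were maintained in medium with fetal bovine serum, which itself carries cholesterol and fatty acids. Neither the promoter of the plasmids nor a sort for transfected cells is given in the sources used here, and untransfected cells may be part of each library. Nothing states that the replicates were separate cultures, so the p-values rest on a spread among libraries that may be purely technical.

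Cholesterol is built from acetyl-CoA. Acetyl-CoA units are joined and reduced to mevalonate, turned into isoprenoid diphosphates and squalene, closed to the ring of lanosterol, and trimmed stepwise to cholesterol. The fatty acid branch starts from the same acetyl-CoA, which ACLY makes from citrate and ACSS2 from acetate, and proceeds through malonyl-CoA to palmitate and its elongated and desaturated products. Both branches are driven by the SREBP transcription factors. When sterols are low, SCAP escorts SREBPs out of the endoplasmic reticulum for cleavage, and when sterols are high, the INSIG proteins hold SCAP back. SREBP-2 (SREBF2) acts mainly on the sterol genes and SREBP-1 (SREBF1) mainly on the fatty acid genes.

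The counts summed over genes were 21011786 to 23527259 per library, and 17459 genes passed the filter. NFATC2 itself had 2211 and 2521 CPM (counts scaled to the normalized library size) with NFATc2 and 2581 and 2435 with NFATc2M. A count over the whole gene cannot tell the 2 constructs apart and does not check the labels. Of the 8 A549 markers, KRT8, at 48441 to 53963 counts, and ALDH1A1 were abundant. EPCAM and CDH1 were low, at 48 to 70 and 210 to 265 counts. Of the 3 genes listed as deleted in A549, CDKN2A and CDKN2B had 0 counts in every library and MTAP had 2 to 7. The 10 HEK-293 markers summed to 106 and 122 CPM with NFATc2 against 105 and 102 with NFATc2M. Most of this was INA and ZIC2, with SALL3 and TCF15 at 0 in every library. The 8 fibroblast, blood and endothelial markers summed to 28.7 and 29.0 CPM against 42.9 and 36.8, nearly all of it COL1A1 and CD14, with PTPRC and CD3E at 0. The part of these markers in the results below was not tested. Across all genes tested, 856 were higher and 652 lower with NFATc2 (662 and 864 with upper quartile scaling, 556 and 707 with library size scaling only). The fold change of a gene fell with the GC content of its exons, with a Pearson's r of -0.46 over 17163 genes, themselves no independent replicates.

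To compare levels between genes, CPM was divided by exonic length. This length covers all annotated exons of a gene, so the ranking per kb depends on the annotation. In bulk samples such as these, fewer cells expressing a gene and less of its RNA per cell cannot be told apart. Per kb, the fatty acid branch was the more abundant one in these cells, with a median level of 43.9 CPM per kb over its 8 genes and 10.5 over the 18 sterol genes. ACLY, ATP citrate lyase, was the highest of the 33 at 195 ± 6.77 CPM per kb (SD over the 4 libraries). SCD, the desaturase that makes oleate, followed at 117 ± 13.2 and FASN, fatty acid synthase, at 68.6 ± 5.94. These 3 levels lay further apart than their spread, and the ranges of their libraries did not meet. FADS2 (46.1 ± 1.42) and FADS1 (41.6 ± 3.15), the desaturases of polyunsaturated fatty acids, came next. The ranges of their libraries met, with FADS2 the higher within each library. ACACA, the carboxylase that makes malonyl-CoA, stood at 9.95 ± 0.47 CPM per kb, and ELOVL6 (4.57 ± 0.26) and ACSS2 (4.28 ± 0.28) were the lowest of the branch. In the sterol branch the highest levels per kb were those of EBP, the sterol isomerase (35.1 ± 1.80), PMVK, phosphomevalonate kinase (30.7 ± 7.34), and FDPS, farnesyl diphosphate synthase (27.8 ± 0.81). The libraries of PMVK, from 21.7 to 36.8, overlapped those of EBP and of FDPS. By CPM without length, DHCR7 was the highest of the sterol genes, with means of 158.9 with NFATc2 and 154.7 with NFATc2M. The lowest was SC5D, lathosterol oxidase, at 1.42 ± 0.22, which did not differ beyond the spread from TM7SF2 at 1.55 ± 0.33. Summed over each branch, the fatty acid genes took 3423 and 3475 CPM with NFATc2 and 3368 and 3208 CPM with NFATc2M. The sterol genes took 987 and 950 CPM against 928 and 901. Both sums were higher in each NFATc2 library than in either NFATc2M library. A sum is set mainly by the most abundant genes, and these did not move together. Mean SCD was 673.7 CPM with NFATc2 against 556.4 with NFATc2M, and mean FASN 610.3 against 668.5.

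**Figure D1:**
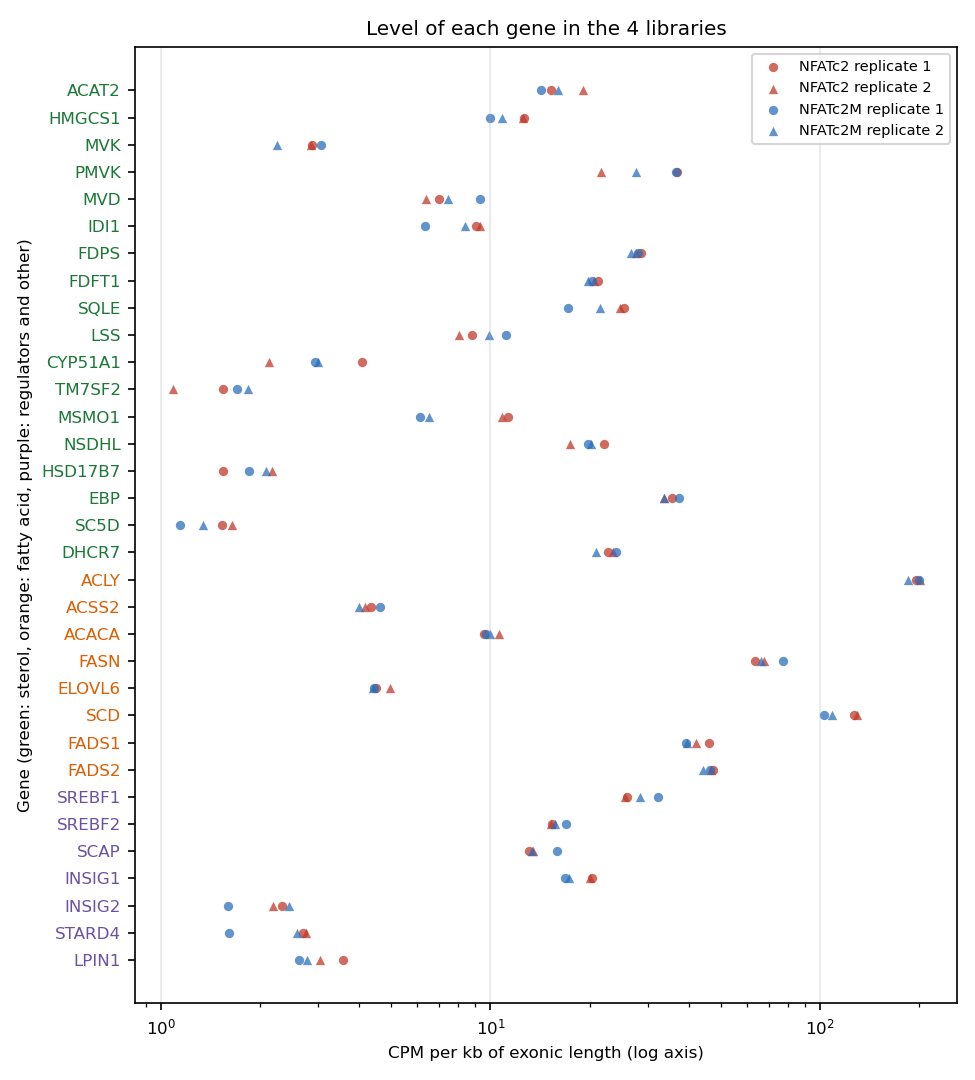
Level of each of the 33 genes in the 4 libraries, as CPM per kb of exonic length on a log axis, with NFATc2 in red, NFATc2M in blue, circles for replicate 1 and triangles for replicate 2, and with names of sterol genes in green, fatty acid genes in orange and regulators and others in purple. ACLY, SCD and FASN stand at the top with means of 195, 117 and 68.6 CPM per kb, and the 2 groups lie close together for most genes, with MSMO1 a visible exception.

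In the comparison of NFATc2 with NFATc2M, 2 of the 33 genes rose and 0 fell at an adjusted p of 0.05 and a log2 fold change of 0.26 (edgeR's quasi-likelihood test, Benjamini-Hochberg adjustment over all genes tested). This was 6.06% of the members, where 8.64% of all genes tested were called (4.90% higher and 3.73% lower). A share of 2 in 33 is near that background. The other 31 did not pass. Both called genes, MSMO1 and SQLE, were enzymes of the late sterol pathway, from squalene to cholesterol.

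MSMO1, the oxidase that starts removal of the methyl groups at carbon 4 of the sterol ring, rose most. It lies on chromosome 4 of GRCh38 from 165327667 to 165343164. Its counts were 699 and 719 with NFATc2 and 368 and 402 with NFATc2M, or 32.3 and 31.0 CPM against 17.4 and 18.6. Both NFATc2 libraries were far above both NFATc2M libraries, and replicates differed little within a group. The means and SDs of the 2 libraries were 31.7 ± 0.97 CPM and 18.0 ± 0.83 CPM, a 1.76-fold difference. On the log2 scale this was 0.82 (SE 0.16, 95% interval 0.51 to 1.13, edgeR adjusted p = 0.00016). MSMO1 was the 1 member called in each of the 16 alternative fits, where its log2 fold change ran from 0.58 to 0.87 and its adjusted p from 6.01e-05 to 0.0336 over edgeR, DESeq2 and limma. These include the fit without NFATc2M replicate 1, in which 0.400% of all genes were called, 0.0494% higher and 0.351% lower (edgeR adjusted p = 0.0336). No exon of another gene overlaps its exons in the annotation. Its GC content of 38.85% is low, and when an offset took out the trend with GC content and length in each library, the log2 fold change was 0.58 (edgeR adjusted p = 0.0115).

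The promoter of MSMO1 is shown because it belongs to the 1 gene called throughout, beside those of SCD, the fatty acid gene nearest the threshold, and SREBF2, the one member whose promoter held the letters of a sterol regulatory element. The sequences are from RefSeq (GRCh38.p14), run from 250 bases before to 50 after the start on the plus strand, and lie at chr4:165327419-165327718, chr10:100346983-100347282 and chr22:41832855-41833154. Capitals mark CCAAT (the NF-Y box), TCACNCCAC (the core of a sterol regulatory element) and GGAAA (the NFAT core), each on either strand, so that ATTGG and TTTCC are the opposite strand of CCAAT and GGAAA.
MSMO1: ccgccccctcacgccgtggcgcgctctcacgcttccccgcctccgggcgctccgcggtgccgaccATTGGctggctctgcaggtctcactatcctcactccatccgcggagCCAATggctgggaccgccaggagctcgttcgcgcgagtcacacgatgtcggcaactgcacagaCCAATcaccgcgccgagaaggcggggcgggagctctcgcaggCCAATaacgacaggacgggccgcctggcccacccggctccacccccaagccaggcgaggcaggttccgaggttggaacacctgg
SCD: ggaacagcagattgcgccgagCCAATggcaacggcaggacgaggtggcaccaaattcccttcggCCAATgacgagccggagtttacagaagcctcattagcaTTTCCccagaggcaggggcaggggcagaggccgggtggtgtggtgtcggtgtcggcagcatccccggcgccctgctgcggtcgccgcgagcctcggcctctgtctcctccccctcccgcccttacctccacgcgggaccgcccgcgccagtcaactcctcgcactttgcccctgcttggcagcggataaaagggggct
SREBF2: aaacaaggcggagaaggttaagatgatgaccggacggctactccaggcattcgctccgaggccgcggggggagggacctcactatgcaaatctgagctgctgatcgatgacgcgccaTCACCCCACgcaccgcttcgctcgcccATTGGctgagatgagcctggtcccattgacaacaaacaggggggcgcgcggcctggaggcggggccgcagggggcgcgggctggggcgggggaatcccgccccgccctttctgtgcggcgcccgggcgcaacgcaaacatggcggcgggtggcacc
The MSMO1 promoter held CCAAT at -185, -139, -76 and -34 from the start, the first of these on the opposite strand, and no GGAAA. SCD held CCAAT at -229 and -186 and GGAAA at -148 on the opposite strand. SREBF2 held TCACCCCAC at -133 with CCAAT at -106 on the opposite strand. Of the 33 genes 29 matched a promoter, all but ACAT2, FASN, FDFT1 and SQLE. CCAAT was in 12 of 15 sterol promoters (80.0%) and 3 of 7 fatty acid promoters (42.9%), and in 35.7% of the 27305 promoters of that length. GGAAA was in 5 of 15 sterol promoters (33.3%) and 5 of 7 fatty acid promoters (71.4%), against 61.4% of all. TCACNCCAC was in 1.15% of all promoters. A match is only a run of letters in this window and was not tested as a site.

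SQLE, squalene epoxidase and a rate-limiting step after mevalonate, was the other gene called. It lies on chromosome 8 from 124998497 to 125022283. Its level was 109 and 106 CPM with NFATc2 and 74.1 and 92.3 CPM with NFATc2M, from 2365, 2464, 1568 and 1997 counts. The groups did not overlap, but NFATc2M replicate 1 was well below replicate 2. The log2 fold change came to 0.37 (SE 0.12, 95% interval 0.15 to 0.60, edgeR adjusted p = 0.0254). It was 0.22 without NFATc2M replicate 1, 0.36 without NFATc2 replicate 1 and 0.39 without NFATc2 replicate 2. Fewer of all genes were called in these edgeR fits than with all libraries, and the call of SQLE was lost in each. The call was also lost with library size scaling only (edgeR adjusted p = 0.0564) and with the GC content and length offset (0.23, edgeR adjusted p = 0.152).

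The remaining sterol genes went both ways. Of the 7 enzymes from acetyl-CoA to farnesyl diphosphate, 0 were called. HMGCS1, the HMG-CoA synthase, had 83.8 and 83.1 CPM with NFATc2 against 66.1 and 71.8 with NFATc2M, with no overlap (log2 fold change 0.28, SE 0.12, edgeR adjusted p = 0.13). IDI1, which isomerizes isopentenyl diphosphate, had 839 and 929 counts against 575 and 778, again with NFATc2M replicate 1 the lowest (log2 fold change 0.32, edgeR adjusted p = 0.147). MVD, the decarboxylase between them in the pathway, lay the other way, at 713 and 700 counts against 929 and 757 (log2 fold change -0.32, edgeR adjusted p = 0.144). These estimates of opposite sign were 0.05 for HMGCS1, 0.20 for IDI1 and -0.02 for MVD with the GC content and length offset. Without NFATc2M replicate 2 the log2 fold changes of IDI1 and MVD were 0.54 and -0.47, and without NFATc2M replicate 1 they were 0.13 and -0.16. FDPS (log2 fold change 0.04, 95% interval -0.18 to 0.27) and ACAT2 (0.18, -0.08 to 0.45), the thiolase at the start, had intervals that include 0. So did MVK (0.11, -0.20 to 0.42) and PMVK (-0.14, -0.54 to 0.26). ACAT2, HMGCS1 and FDPS share 22.2%, 37.7% and 18.6% of their exonic bases with exons on the opposite strand, those of ACAT2 with the abundant SOD2 and TCP1, and whether reads were counted by strand is not stated.

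Beyond squalene, LSS, which closes the lanosterol ring, came nearest to a fall. It had 63.7 and 58.0 CPM with NFATc2 and 80.9 and 71.5 CPM with NFATc2M, without overlap. Its log2 fold change of -0.33 did not pass (SE 0.12, edgeR adjusted p = 0.0728), and it passed in 4 of the 16 alternative fits, all of them edgeR fits without the offset, where it was -0.14 (adjusted p = 0.438). SC5D had 15.5 and 16.5 CPM against 11.5 and 13.5 (log2 fold change 0.35, edgeR adjusted p = 0.226), and TM7SF2, a sterol C14 reductase, had 5.27 and 3.71 against 5.81 and 6.28 (log2 fold change -0.43, edgeR adjusted p = 0.322). In both the groups did not overlap, and for TM7SF2 the NFATc2 replicates lay as far apart as the groups. DHCR7, the last enzyme of the Kandutsch-Russell route, was level at 156 and 162 CPM against 166 and 144 (log2 fold change 0.04, 95% interval -0.18 to 0.25). FDFT1, squalene synthase, which stands between FDPS and SQLE, had a log2 fold change of 0.07 (95% interval -0.16 to 0.29), so a change of the size of MSMO1 lay outside its interval. NSDHL and HSD17B7, which act after MSMO1 in the same demethylation, had -0.02 (95% interval -0.29 to 0.25) and -0.08 (95% interval -0.50 to 0.34), and EBP had -0.04 (95% interval -0.28 to 0.20). HSD17B7 has a pseudogene copy, HSD17B7P2, with up to 67 counts, so some reads could be shared. CYP51A1, the cytochrome P450 that demethylates lanosterol, had 17.0 and 8.88 CPM with NFATc2 against 12.3 and 12.5 with NFATc2M. Its NFATc2 replicates spanned both NFATc2M libraries, and no difference could be told from them (log2 fold change 0.06, edgeR adjusted p = 0.905). In the annotation used here 68.2% of the exonic bases of CYP51A1 and 36.4% of those of EBP lie in exons of other genes on the same strand. Those other genes had no row among the genes counted, and any effect of the overlap was not tested.

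In the fatty acid branch 0 of 8 genes passed in either direction in edgeR. DESeq2 called SCD alone, where it called 11.6% of its genes (7.09% higher, 4.55% lower), and limma voom called 0, where it called 7.98% (4.57% higher, 3.41% lower). SCD had 666 and 681 CPM with NFATc2 and 540 and 572 CPM with NFATc2M. The groups did not overlap and the gap was larger than the spread within either group, yet it did not pass (log2 fold change 0.28, SE 0.10, edgeR adjusted p = 0.0713, 0.0297 from DESeq2, 0.0473 from edgeR with the replicate number as a block). FADS1 had 470 and 430 CPM against 400 and 403 (log2 fold change 0.16, edgeR adjusted p = 0.344), with both NFATc2 libraries higher. FADS2, its neighbour on chromosome 11, had 499 and 493 against 491 and 465, hardly apart (log2 fold change 0.05, 95% interval -0.15 to 0.26). The 2 genes overlap by under 5% of their exonic bases on opposite strands (4.79% of FADS1 and 4.64% of FADS2). FASN had a negative estimate here and a positive one with the offset (0.18). It had 590 and 631 CPM against 718 and 619, and the groups overlapped (log2 fold change -0.13, 95% interval -0.33 to 0.07). ACLY had 1017 and 1045 CPM against 1036 and 966 (log2 fold change 0.04, 95% interval -0.16 to 0.24), so at this depth, 20906 to 24245 counts, a change of the size of SQLE lay outside its interval. ACACA, ACSS2 and ELOVL6 ran from -0.02 to 0.10 and each had an interval that includes 0.

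**Figure D2:**
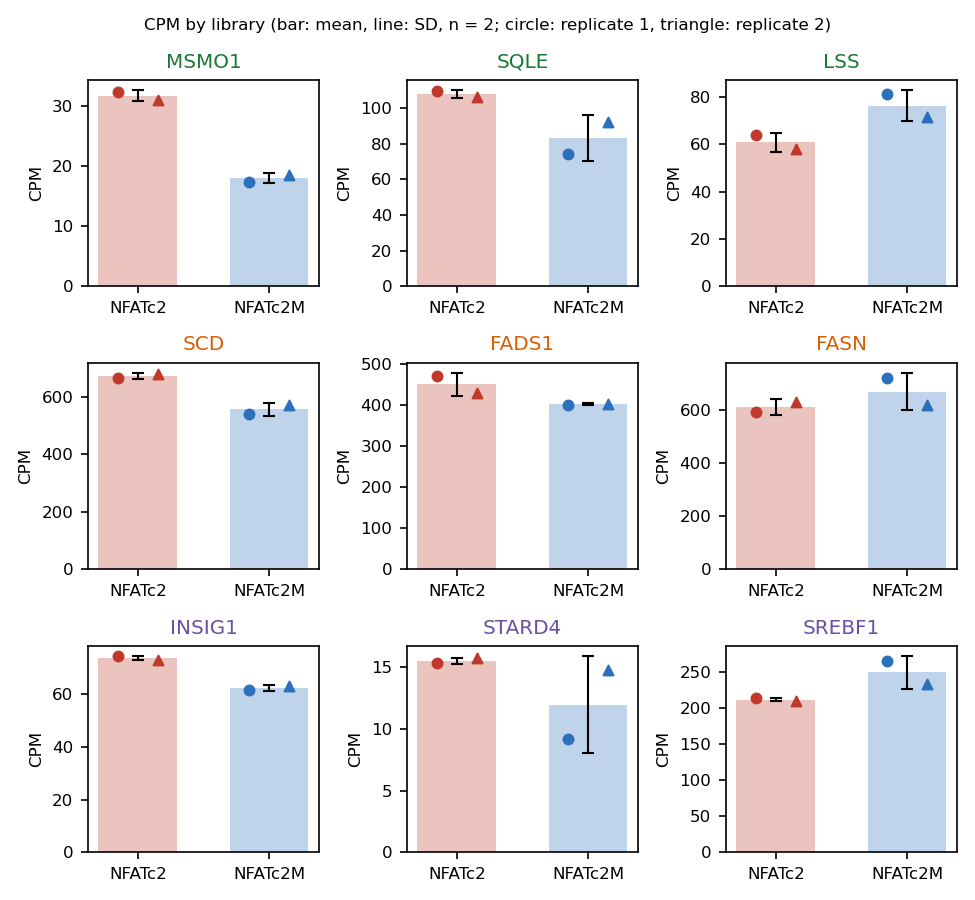
CPM of 9 of the genes by library, each axis starting at 0, with bars for the mean, lines for the SD (n = 2), circles for replicate 1 and triangles for replicate 2. MSMO1 separates the groups most clearly, at 31.7 against 18.0 CPM, while for SQLE and STARD4 the low value of NFATc2M replicate 1 sets much of the gap.

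Of the 7 regulators and other genes, 0 passed in edgeR, DESeq2 (which gave INSIG2 and STARD4 no adjusted p) or limma voom. SREBF1 had 214 and 210 CPM with NFATc2 and 266 and 234 CPM with NFATc2M, without overlap (log2 fold change -0.24, SE 0.11, edgeR adjusted p = 0.151). SREBF2 had 124 and 123 CPM against 136 and 127 (log2 fold change -0.09, 95% interval -0.31 to 0.13), and SCAP 82.3 and 84.8 against 100 and 83.8 (-0.14, 95% interval -0.37 to 0.09). Thus the transcripts of both transcription factors and of their escort had negative estimates, all 3 of which were positive with the GC content and length offset. INSIG1, which is itself an SREBP target, had 74.4 and 73.2 CPM against 61.6 and 63.1. Its replicates were close and its groups apart, but it did not pass (log2 fold change 0.24, SE 0.12, edgeR adjusted p = 0.204). INSIG2 had 9.21 and 8.66 CPM against 6.33 and 9.66, with overlap. STARD4, a sterol transfer protein, had 15.3 and 15.7 CPM with NFATc2 and 9.17 and 14.7 with NFATc2M. The gap is that of NFATc2M replicate 1. The log2 fold change of STARD4, 0.37 (edgeR adjusted p = 0.216), was 0.06 without that library and 0.76 without NFATc2M replicate 2. LPIN1, a phosphatidate phosphatase and coregulator, had 42.3 and 36.1 CPM against 31.2 and 32.9 (log2 fold change 0.29, edgeR adjusted p = 0.191).

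**Figure D3:**
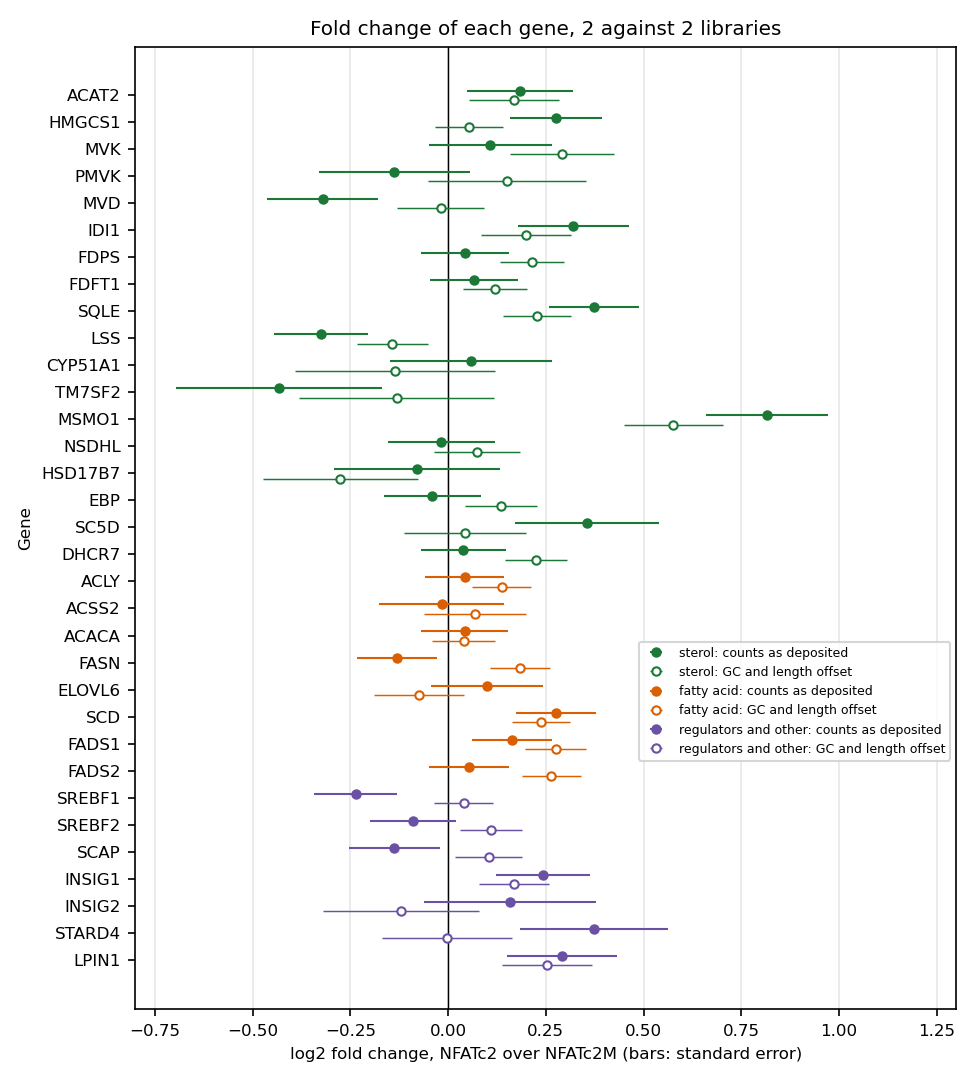
log2 fold change of NFATc2 over NFATc2M for each gene in pathway order, with bars for the SE, filled for the counts as deposited and open with the GC content and length trend removed. MSMO1 stands apart in both, at 0.82 and 0.58, and the open points of SREBF1, SREBF2, SCAP and FASN lie on the other side of 0 from the filled ones.

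The 2 branches were then set side by side. The median log2 fold change was 0.05 over the 18 sterol genes and 0.05 over the 8 fatty acid genes, against 0.0006 over all genes tested, and the difference between branches was not tested. Leaving out 1 library moved both medians, the sterol one to 0.0954 without NFATc2 replicate 2 and 0.0115 without NFATc2M replicate 2, and the fatty acid one to 0.0836 without NFATc2 replicate 1, 0.0190 without NFATc2 replicate 2 and 0.0879 without NFATc2M replicate 1. The sterol genes ran from -0.43 (TM7SF2) to 0.82 (MSMO1) and the fewer fatty acid genes from -0.13 to 0.28. The sterol genes had fewer counts, 86 to 3750 per library against 452 to 24245. Positive estimates were found in 11 of 18 sterol and 6 of 8 fatty acid genes, where 50.1% of all genes tested had one. Both NFATc2 libraries were above both NFATc2M libraries in 6 of 18 sterol and 4 of 8 fatty acid genes, where 27.2% of all genes tested were, and below them in 3 and 0, where 26.0% of all were. With 2 libraries per group no test of the difference between branches is given, and the branches are described by these counts only.

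The order of the 33 fold changes followed GC content closely. Pearson's r between log2 fold change and exonic GC content was -0.77 over the 33 genes, which share the 4 libraries, and -0.78 over the 18 sterol genes. The 11 genes under 45% GC, MSMO1, SQLE, HMGCS1, IDI1, SC5D, INSIG1 and STARD4 among them, had a median log2 fold change of 0.28, and 10 were positive. The 11 genes over 55%, among them LSS, MVD, TM7SF2, FASN, SREBF1 and SREBF2, had a median of -0.14, and 8 were negative. Over all genes tested the median was 0.16 from 40% to 45% GC and -0.17 from 55% to 60%. With the offset for both GC content and length, r over the 33 genes was 0.08, and 12 genes changed sign, among them SREBF1 (0.04), SREBF2 (0.11), SCAP (0.10) and FASN (0.18). In that fit 25 of the 33 estimates were positive, where 55.2% of all genes tested were, with a median of 0.13 in the sterol and 0.16 in the fatty acid branch against 0.032 over all genes. It called 3 members higher and 0 lower (9.09%), where 3.34% of all genes were called, 2.20% higher and 1.14% lower. These were MSMO1, FADS1 (log2 fold change 0.28, edgeR adjusted p = 0.0464) and FADS2 (0.26, edgeR adjusted p = 0.0477), the last 2 just inside the threshold. The offset took out GC content and length together, FADS1 and FADS2 are long at 10.2 and 10.6 kb of exons, and the part of either property alone was not tested.

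**Figure D4:**
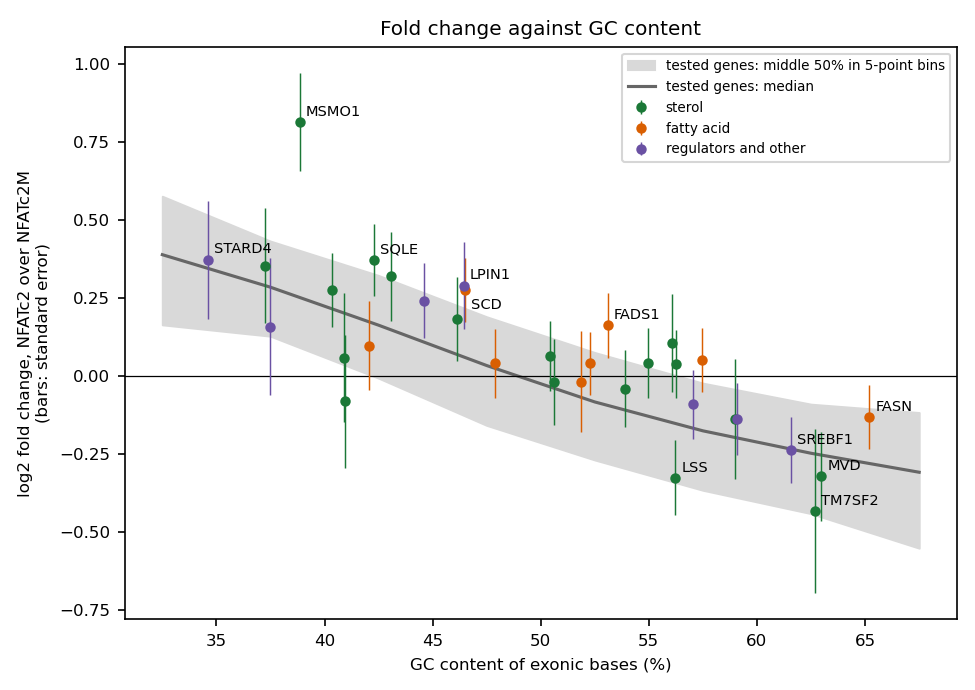
log2 fold change of NFATc2 over NFATc2M against the GC content of exonic bases for the 33 genes, with bars for the SE, over the median (line) and middle 50% (band) of all tested genes in bins of GC content. The genes run down the band, r = -0.77, with MSMO1 well above it at 38.85% GC.

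Other genes of the same pathways were listed by function. The lists were chosen with earlier results of these data known, so their shares beside those of all genes are no test. Of 23 genes of sterol metabolism and SREBP processing, 4 rose and 0 fell in edgeR (17.4%, where 8.64% of all genes tested were called and 4.90% were higher), with a median log2 fold change of 0.18. TMEM97, an endoplasmic reticulum protein that binds sterols, had 82.9 and 76.3 CPM with NFATc2 and 59.1 and 55.9 CPM with NFATc2M (log2 fold change 0.47, edgeR adjusted p = 0.00586, and 0.00939 with the offset). SOAT1, which esterifies cholesterol, rose by 0.48, LBR, the second sterol C14 reductase beside TM7SF2, by 0.45, and MBTPS2, the site-2 protease that frees SREBPs, by 0.42 on the log2 scale. These last 3 did not pass with the offset (adjusted p = 0.142, 0.0945 and 0.477 from edgeR), and their GC contents were 39.9%, 42.7% and 38.8%. Of 27 tested genes of fatty acid and glycerolipid metabolism, 6 rose and 1 fell (25.9%, against the same 8.64% of all genes). The gene that fell was FADS3, a relative of FADS1 and FADS2, with 36.2 and 33.2 CPM under NFATc2 and 59.2 and 50.6 CPM under NFATc2M (log2 fold change -0.66, edgeR adjusted p = 0.00031, and 0.0166 with the offset). So FADS3 fell where FADS1 and FADS2 had estimates of 0.16 and 0.05. ACSL3, which activates long-chain fatty acids, rose by 0.46, HSD17B12, the ketoacyl reductase of elongation, by 0.49 and ELOVL7, an elongase, by 0.55 on the log2 scale. With the offset 1 of the 27, FADS3, passed (3.7%, close to the 3.34% of all genes in that fit). Without NFATc2M replicate 1, the log2 fold change was 0.50 for TMEM97, -0.55 for FADS3 and 0.24 for HSD17B12. The genes named as called in these lists did not pass in that fit, in which few of all genes tested were called. TMEM97, SOAT1, LBR and MBTPS2 also failed without NFATc2 replicate 1 or 2, where fewer of all genes were called than with 4 libraries. A failure to pass with 1 library left in a group cannot be told from the loss of a replicate.

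NFATc2M replicate 1 was the library most often at an extreme for these genes. It was the lowest of the 4 in 12 of the 33 and the highest in 10. NFATc2 replicate 1 was the highest in 12. The same count over all genes tested was not made, so this cannot be read as particular to these genes.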

How the data were processed

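RNA-seq was available for 4 libraries. Per the labels and the methods, alignment to GRCh38 by the authors used HISAT2, whose version was not found, followed by sorting in SAMtools 1.18 and counting in HTSeq 0.11.2. The deposited values are raw whole-number counts per gene. A further 4 value columns carry no sample name and were not used. The 5 HTSeq summary categories, 56.4% to 57.4% of each total, were left out.

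The test was edgeR 4.0.16 under R 4.3.3 (filterByExpr, TMM, robust quasi-likelihood, no block, 2 residual degrees of freedom), with Benjamini-Hochberg adjustment over all genes tested, and genes were called at an adjusted p of 0.05 and a log2 fold change of 0.26. CPM uses TMM library sizes. The script was tested on simulated data. Positions, exonic length and GC content came from GENCODE on GRCh38, a later annotation release than the one counted. The GC offset removed a spline (5 degrees of freedom) in GC content and in length from each library. The stricter filter asked for 50 counts in every library of a group. DESeq2 1.42.0, limma 3.58.1 and other alternatives are given in the closing section, and figures were drawn with matplotlib 3.10.9.

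Members, branches and lists were chosen with earlier results of these data known. Every member is given; of the other lists, up to 4 called genes with the smallest p were named, and 1 gene of these lists is not reported here. Promoters were to be shown for the called members off chromosome 8, and of the 2 called members this was MSMO1; those of SCD and SREBF2, and the limits of 45% and 55% GC, were chosen after values were seen.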

Additional observations from a re-analysis of the deposited data

How the results depend on the processing

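The count of sterol genes called higher, 2 with edgeR, was 1 with library size scaling only, with the GC content and length offset, with that offset and the replicate block, and at an adjusted p of 0.01, and 1 to 3 when a library was left out. Sterol genes called lower, 0, came to 1 with upper quartile scaling, the filter at 50 counts, the replicate block and an adjusted p of 0.1, and to 0 to 2 when a library was left out. Fatty acid genes called higher, 0, came to 1 with DESeq2, the replicate block and an adjusted p of 0.1, and to 2 with the offset, with or without the block; leaving out ACLY and ACSS2 changed nothing. All genes called higher, 856, came to 556 with library size scaling only, 384 with the offset, 555 with the offset and block, 321 and 1299 at an adjusted p of 0.01 and 0.1, and 9 to 1273 when a library was left out, and those called lower, 652, to 407 with DESeq2, 199, 288, 270 and 1033 in the same order of the last 4, and 64 to 690. Without NFATc2M replicate 1, 9 were higher and 64 lower.

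With the offset, signs turned for PMVK (0.15), CYP51A1 (-0.14), NSDHL (0.0737), EBP (0.13), ACSS2 (0.0690), FASN (0.18), ELOVL6 (-0.075), SREBF1 (0.0398), SREBF2 (0.11), SCAP (0.10), INSIG2 (-0.12) and STARD4 (-0.0032). With the offset and block they were PMVK 0.13, CYP51A1 -0.19, NSDHL 0.0686, EBP 0.14, ACSS2 0.0714, FASN 0.18, ELOVL6 -0.0736, SREBF1 0.0400, SREBF2 0.11, SCAP 0.10 and INSIG2 -0.11, and CYP51A1 was -0.0244 with limma voom. When a library was left out, signs turned for MVK (-0.10 to 0.34), PMVK (-0.56 to 0.19), CYP51A1 (-0.48 to 0.45), NSDHL (-0.19 to 0.13), HSD17B7 (-0.35 to 0.15), EBP (-0.11 to 0.0307), DHCR7 (-0.0584 to 0.14), ACLY (-0.0064 to 0.0858), ACSS2 (-0.12 to 0.0901), ACACA (-0.0397 to 0.12) and INSIG2 (-0.12 to 0.50). The cause was not tested. Beside these, edgeR with legacy=FALSE, chosen after results had been seen, changed no call of a member. DESeq2 gave no adjusted p for 6 members. Whether same-numbered libraries were handled together is not stated. Their deviations correlated with r = 0.041 across 17459 genes, which with 2 libraries per group cannot decide whether they were paired. The block called 1022 genes higher and 737 lower, against 856 and 652 without it. With 1 library left in a group, its spread is taken to be that of the other group.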
